A study of Mus musculus with 7 samples.

Results

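The 12 ribosomal protein pseudogenes described here, with reads in mouse brain, are the rows of the deposited table whose mouse symbol starts with Rpl or Rps and ends in -ps with or without a number, and that were chosen by a mean value of 3 or more over all libraries. The pattern matched 274 of the 48526 genes in the table, and 12 reached the mean of 3. The RNA came from brains of mice at 24 months, all labelled V1SSV2 and DT Venus, in a study of α-synuclein oligomers by protein complementation, in which parts of a reporter such as the fluorescent protein Venus join when the proteins they are attached to meet. The 4 libraries titled on are labelled Glucose and the 3 titled off are labelled Dox, so the on or off state and the agent given cannot be told apart. Both groups carry the same V1SSV2 label, and no group without it enters the comparison. The promoter, the strain and the brain region are not stated in the labels. Nothing in the labels ties a library to an animal of its own, and p-values here reflect only the spread between these samples, which may be technical. Values are regularized logarithms (rlog values), a log2 scale of read counts scaled for library size, on which a value of 3 stands for about 8 reads. The depth of each library is unknown.

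A processed pseudogene is a copy of a spliced messenger RNA that was reverse transcribed and inserted elsewhere in the genome, and it usually lacks the introns and the promoter of its parent gene. Ribosomal protein genes, whose short messenger RNAs are among the most abundant in any cell, have left more such copies in mammalian genomes than most gene families. Recent copies can be nearly identical to the parent, so that a sequencing read may match both places. The parents encode proteins of the large subunit (names starting with Rpl) and of the small subunit (names starting with Rps) of the cytoplasmic ribosome.

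The sequences of 3 members are shown because they span the range from no difference to the most differences from the parent. Sequences are those of the GENCODE M21 transcripts on build GRCm38, written 5′ to 3′ on the transcribed strand, with capitals at bases that differ between copy and parent or are absent from the other. Rpl31-ps8 had the largest difference between the groups and lies at chr15:90764279-90764656 on the minus strand. Its 378 bases were all identical to an Rpl31 transcript, so no base is in capitals. The first 300 bases are shown.
Rpl31-ps8: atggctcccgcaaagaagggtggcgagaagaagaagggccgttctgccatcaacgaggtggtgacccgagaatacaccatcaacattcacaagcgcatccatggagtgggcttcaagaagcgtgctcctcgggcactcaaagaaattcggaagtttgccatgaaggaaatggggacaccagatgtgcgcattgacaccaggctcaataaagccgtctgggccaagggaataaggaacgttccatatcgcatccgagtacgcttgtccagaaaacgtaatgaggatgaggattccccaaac

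Rpl39-ps, the shortest member, is shown with its parent because 1 substitution separates them. It lies at chr15:102635038-102635188 on the plus strand, and the substitution is T97C, given as the parent's base, the position from the first base of the pseudogene and the pseudogene's base.
Rpl39-ps: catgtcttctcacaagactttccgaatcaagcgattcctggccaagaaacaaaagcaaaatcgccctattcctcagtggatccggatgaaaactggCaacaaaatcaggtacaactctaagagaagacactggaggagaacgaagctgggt
Rpl39: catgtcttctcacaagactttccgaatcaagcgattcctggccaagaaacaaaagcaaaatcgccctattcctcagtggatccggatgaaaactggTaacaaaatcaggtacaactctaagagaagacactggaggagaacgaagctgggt

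Rps19-ps3, the member with the highest value, is shown with its parent as the most divergent case. It lies at chr4:147821777-147822202 on the minus strand, and it had 14 substitutions and lacked 6 bases that are present in Rps19. The stretches shown are its first 294 bases, which hold 9 of the substitutions, and the matching 300 bases of Rps19.
Rps19-ps3: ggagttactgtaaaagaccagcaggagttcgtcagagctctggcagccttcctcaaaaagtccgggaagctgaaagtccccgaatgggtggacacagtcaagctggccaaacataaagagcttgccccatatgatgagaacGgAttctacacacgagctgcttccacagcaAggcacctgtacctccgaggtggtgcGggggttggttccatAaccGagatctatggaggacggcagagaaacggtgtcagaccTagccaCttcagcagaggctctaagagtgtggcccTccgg
Rps19: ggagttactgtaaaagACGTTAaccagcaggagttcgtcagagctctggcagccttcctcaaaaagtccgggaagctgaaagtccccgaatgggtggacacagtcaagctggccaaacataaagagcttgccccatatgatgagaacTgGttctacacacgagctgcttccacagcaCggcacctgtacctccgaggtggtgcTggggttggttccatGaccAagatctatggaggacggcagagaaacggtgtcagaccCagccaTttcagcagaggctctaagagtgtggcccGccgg

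Identity to the parent was not used to choose the members. Rpl31-ps8, Rps16-ps2, Rpl10a-ps1, Rps13-ps2 and Rpl38-ps2 were identical to a parent transcript over their whole annotated length, of 378, 441, 654, 453 and 213 bases. Rpl39-ps matched at 150 of 151 bases, and Rpl14-ps1 differed from Rpl14 at 4 bases and by 3 gap bases over 656 aligned positions. Rpl9-ps6 matched Rpl9 at 691 of 695 aligned bases, and 3 of its 4 differences were its first 3 bases. Rps10-ps2 differed from Rps10 at 5 of 496 bases and Rps10-ps1 at 6 of 495, with 1 substitution, A438G, common to both copies. Rpl29-ps2 differed from Rpl29 at 11 of 478 bases. It has 3 transcripts, with exons of 1323 bases in all, and only the transcript of 478 bases was compared. The identity and window values of Rpl29-ps2 given below cover that transcript only.

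Over the whole pseudogene length the median identity of the 12 members was 99.4%. It was 97.3% for the 182 other matches to the symbol pattern that could be aligned and were not listed at 0, and 92.1% for 78 that were listed at 0 in every library. Of the members 58.3% reached 99%, against 24.7% and 5.13% in those groups. Identity alone did not place a copy among the members, since 14 copies were identical to the parent over their whole length, of which 5 were members, 7 had lower values and 2 were listed at 0.

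Stretches that a short read could tell from the parent were absent from 5 members and present in the other 7. No read length is stated in the labels, so windows of 50 and 100 bases were counted on the transcribed strand. In the 5 members identical to the parent every window of either length also occurred in the parent. In Rpl39-ps 51.0% of the 50-base windows and 0 of the 52 100-base windows occurred in Rpl39. The share of 100-base windows found in no other annotated gene was 19.8% for Rpl9-ps6, 26.2% for Rps10-ps2, 39.4% for Rpl14-ps1, 74.9% for Rpl29-ps2, 83.1% for Rps10-ps1 and 92.0% for Rps19-ps3. For the 5 identical members sequence within the annotated bounds cannot tell a read of the pseudogene from a read of the parent, and how reads with several matches were treated is not stated in the labels. The parent is not the only match. Windows of 100 bases of Rpl31-ps8 occurred in 10 other annotated genes, the parent included, and those of the other identical members in 2 to 5.

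The members also differed in what the annotation records. Of the 12, 10 are annotated as processed pseudogenes with 1 exon; Rpl29-ps2, on chromosome 13 from 4609334 to 4615025, is a transcribed processed pseudogene with 4 exons in 3 transcripts, and Rpl9-ps6, on chromosome 19 from 32465865 to 32466578, is annotated as protein coding with 1 exon. An open reading frame as long as that of the parent transcript was present in Rpl9-ps6 (579 bases), Rpl10a-ps1 (654), Rps16-ps2 (441), Rpl31-ps8 (378) and Rpl38-ps2 (213). Frames were counted only with a start and a stop codon inside the annotated bounds. Rps13-ps2, identical to Rps13 over all its 453 bases, ends before the stop of the parent's frame of 456 bases. Rps10-ps1, Rps10-ps2 and Rpl39-ps also end before the parent's stop, so their absence here does not show a broken frame. Rps19-ps3 and the compared transcript of Rpl29-ps2 begin after the first base of the parent's start codon. Their short frames, of 105 and 66 bases, therefore do not show a broken frame either. Rpl14-ps1 had a frame of 651 bases, against 654 in Rpl14. Of the 12, 3 lay in introns of genes on the opposite strand: Rpl14-ps1 (chromosome 7, 45324965 to 45325617) in Trpm4, Rps16-ps2 (chromosome 5, 129128077 to 129128517) in Adgrd1 and Rpl38-ps2 (chromosome 6, 140746960 to 140747172) in Gm11077. The remaining 9 overlapped no other annotated gene, and none of the 12 overlapped a gene on its own strand. Rps19-ps3 began 783 bases after the end of Zfp933 on the same strand, a gene with a mean value of 9.71, and Rps10-ps1 (chromosome 3, 95622278 to 95622772) began 3030 bases after Golph3l, with a mean of 9.95. The other 10 lay at least 18084 bases from the nearest upstream coding or long noncoding gene on their strand.

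Per length, every member lay well below its parent. The rlog value minus the log2 of the exon length in kilobases ran from 2.70 in Rpl29-ps2 to 6.76 in Rpl38-ps2, and in the 11 parents from 9.05 in Rps19 to 11.72 in Rpl38. The difference of these levels, pseudogene minus parent, had a median of -5.44, and ran from -7.54 for Rpl29-ps2 to -2.75 for Rps19-ps3. These levels chose the members and are given without a test. They also depend on how long the parent is taken to be: with the longest transcript in place of all exons the median was -5.93.

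By mean value the members ran from Rps19-ps3 at 5.07, Rpl9-ps6 at 4.76, Rpl14-ps1 at 4.72, Rpl38-ps2 at 4.53 and Rps10-ps2 at 4.40 down to Rps10-ps1, Rpl29-ps2 and Rps13-ps2, each at 3.10. Rps13-ps4, Rpl3-ps1 and Rpl28-ps1 lay just below the limit at 2.97, 2.94 and 2.83. Over the 7 libraries the standard deviation was 0.05 in Rpl29-ps2 and 0.12 in Rps13-ps2, so the order of members this close to each other is not fixed by these values. Of the other 262 matches to the pattern, 79 were listed at 0 in every library and 183 had other values below 3. The parents with most matches were Rps12 with 23, none of them a member, Rpl31 with 21, of which 1 was a member, and Rpl21, Rpl23a and Rps19 with 14 each, of which 1 copy of Rps19 was a member.

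Of the 12 pseudogenes 8 were lower in on than in off brains, and 0 were higher, in limma's test over 17896 genes with Benjamini-Hochberg adjustment at 0.05. Over all tested genes 2.6% passed by the same test, 1.79% lower and 0.816% higher. The median difference, on minus off, was -0.17 over the 12 members and 0.00 over all tested genes. In 9 of the 12 the values of the 4 on libraries all lay below those of the 3 off libraries, which was so for 8.09% of all tested genes, and in 0 of the 12 they all lay above, which was so for 7.13%. The difference was negative in 11 of the 12 and in 48.5% of all tested genes. The rlog transformation shrinks low values towards the gene's mean, so differences are understated: within a group the members' values had a median standard deviation of 0.05, where counting reads at these levels would alone give about 0.40. Spread and difference were shrunken together, and counts were not used here, so whether the counts would pass a test was not tested.

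**Figure D1:**
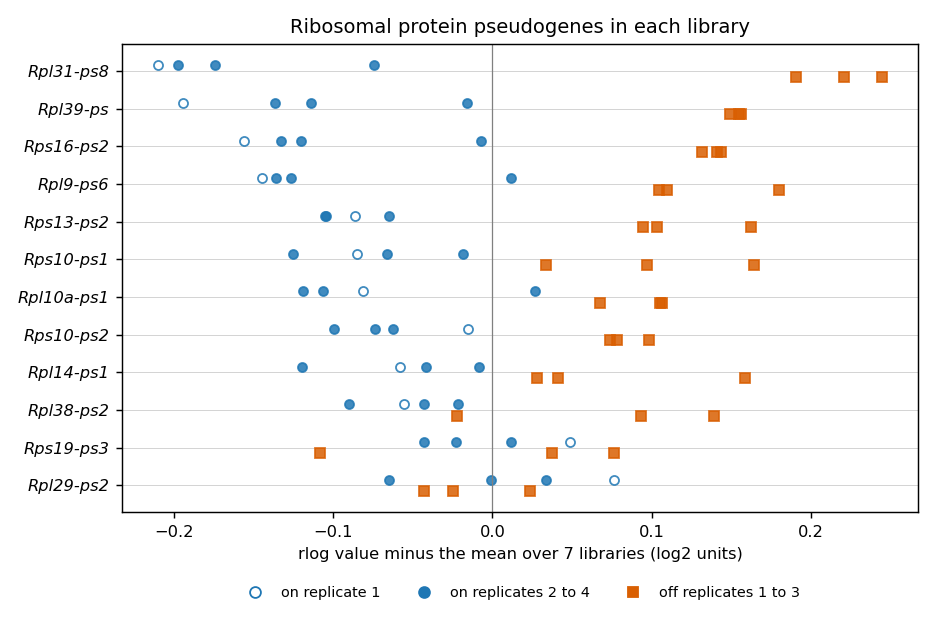
Each of the 12 pseudogenes is a row, and each point is 1 library, placed by its rlog value minus the gene's mean over 7 libraries (log2 units). Circles are on libraries (open for on replicate 1) and squares are off libraries; in 9 rows all circles lie left of all squares, and the rows Rpl38-ps2, Rps19-ps3 and Rpl29-ps2 overlap.

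Among copies of large subunit genes, Rpl31-ps8, a copy of the gene for a protein near the exit of the nascent peptide tunnel, had values of 3.60, 3.73, 3.61 and 3.63 in on replicates 1 to 4 and of 4.05, 4.00 and 4.03 in off replicates 1 to 3. The groups lay apart, and the lowest off library stood 0.27 above the highest on library. The difference was -0.38 ± 0.04 (SE, adjusted p = 0.000218 in limma). Rpl39-ps, a copy of the gene for a small protein that lines the same tunnel, was at 3.45, 3.63, 3.51 and 3.53 in on and at 3.79, 3.80 and 3.80 in off. Its 3 off libraries were nearly equal and lay above every on library. It differed by -0.27 ± 0.04 (SE, adjusted p = 0.00307 in limma).

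Rpl9-ps6, the copy annotated as protein coding, had values of 4.61, 4.77, 4.62 and 4.63 in on and of 4.86, 4.87 and 4.94 in off. On replicate 2 was the highest on library and still lay below all off libraries. Its difference was -0.23 ± 0.05 (SE, adjusted p = 0.021 in limma). Rpl10a-ps1, a copy of the gene for a protein of the mobile L1 stalk, was at 3.12, 3.22, 3.09 and 3.08 in on and at 3.26, 3.30 and 3.30 in off. It fell by 0.16 ± 0.03 (SE, adjusted p = 0.0261 in limma), and its groups did not overlap.

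Among copies of small subunit genes, Rps13-ps2 had values of 3.02, 3.04, 3.00 and 3.00 in on and of 3.20, 3.21 and 3.27 in off. The on libraries were close together and all below the off libraries, with a difference of -0.21 ± 0.03 (SE, adjusted p = 0.00156 in limma). Rps16-ps2 was at 3.28, 3.43, 3.32 and 3.31 in on and at 3.58, 3.57 and 3.58 in off. Every on library lay below the off libraries, and the difference was -0.24 ± 0.03 (SE, adjusted p = 0.00354 in limma).

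Rps10-ps1 and Rps10-ps2 are separate copies of one parent, Rps10, on chromosomes 3 and 16. Rps10-ps1 had values of 3.01, 3.08, 2.97 and 3.03 in on and of 3.26, 3.13 and 3.20 in off. Rps10-ps2 was at 4.38, 4.30, 4.34 and 4.32 in on and at 4.47, 4.50 and 4.48 in off. Both copies were lower in every on library than in any off library, by 0.17 and 0.15 on average. The adjusted p in limma was 0.0203 for Rps10-ps1 and 0.0414 for Rps10-ps2.

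The 4 members that did not pass fall into a pair with negative and a pair with near-zero differences. Rpl14-ps1 was at 4.66, 4.71, 4.60 and 4.68 in on and at 4.88, 4.76 and 4.75 in off, and Rpl38-ps2 at 4.48, 4.44, 4.51 and 4.49 in on and at 4.51, 4.62 and 4.67 in off. Their differences were -0.13 ± 0.04 (SE, adjusted p = 0.109 in limma) and -0.12 ± 0.04 (SE, adjusted p = 0.124 in limma); the groups of Rpl14-ps1 did not overlap and those of Rpl38-ps2 did. Rps19-ps3 was at 5.12, 5.05, 5.03 and 5.08 in on and at 5.11, 5.15 and 4.96 in off, and Rpl29-ps2 at 3.18, 3.04, 3.14 and 3.10 in on and at 3.13, 3.06 and 3.08 in off. These copies, which had the most substitutions of the 12 in the transcripts compared, had overlapping groups. In limma Rps19-ps3 differed by -0.003 ± 0.05 (SE, adjusted p = 0.98) and Rpl29-ps2 by 0.03 ± 0.03 (SE, adjusted p = 0.69).

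Rpl31-ps8, Rpl39-ps, Rps13-ps2 and Rps16-ps2 passed with any single library left out, and 4 to 8 members were then called. Leaving out on replicate 3 gave 4 members, beside 0.274% of all tested genes called lower in that fit. Dropping on replicate 4 also gave 4 (0.358% of all genes), as did dropping the third off library (0.285%). There were 5 members when the second off library was dropped (0.207%) and 6 when the first was (1.37%). The number was 7 when on replicate 2 was dropped (0.76%) and 8 when on replicate 1 was (8.02%). The members lost in 1 or more of these fits were Rpl9-ps6, Rpl10a-ps1, Rps10-ps1 and Rps10-ps2, whose highest adjusted p in limma was 0.101, 0.143, 0.0913 and 0.189. The count was 0 when all varying genes were tested without the limit on low values, where 0.0144% of genes were called lower (smallest adjusted p = 0.0515 in limma among the members, for Rpl31-ps8). It was 5 without the intensity trend in limma (1.01% of all genes) and 5 after a trend with transcript length and GC content was removed from each library (0.477%). With array weights in limma Rpl14-ps1 passed as well, at an adjusted p of 0.0415, and the count was 9. That fit called 1134 of all 17896 tested genes lower, where the main fit called 320.

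All 11 parents had negative differences, with a median of -0.18, and 3 of them, Rps16, Rpl10a and Rpl31, passed the test (1.79% of all genes passed lower). Rps16 fell by 0.33 ± 0.05 (SE, adjusted p = 0.00511 in limma), from 10.84 ± 0.05 (SD, n = 3) to 10.52 ± 0.09 (SD, n = 4). Rpl10a fell by 0.25 ± 0.04 (SE, adjusted p = 0.0129 in limma) and Rpl31 by 0.20 ± 0.05 (SE, adjusted p = 0.0369 in limma). The others ran from -0.22 ± 0.07 (SE) for Rps10 to -0.05 ± 0.06 (SE) for Rpl39.

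**Figure D2:**
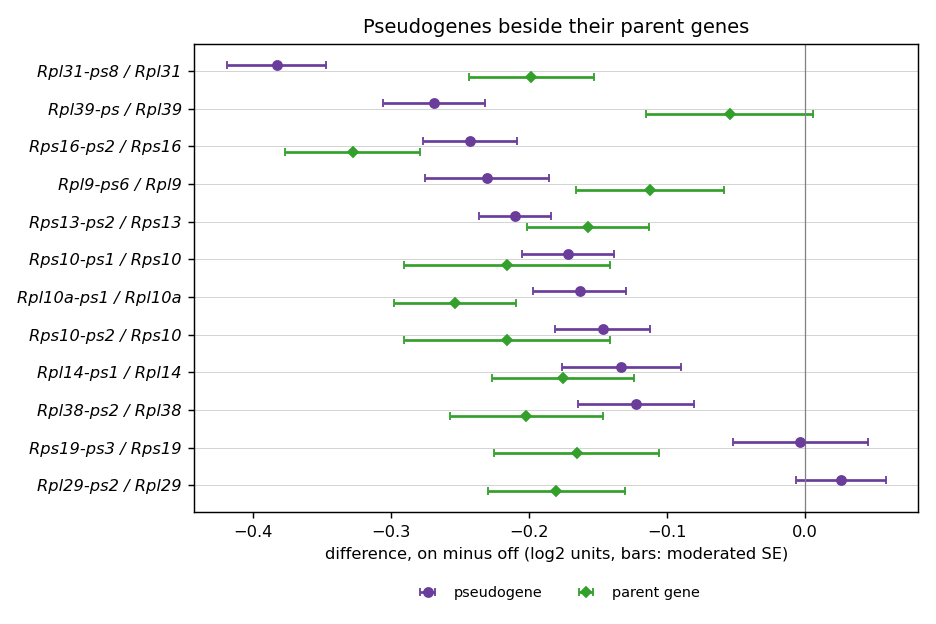
Differences, on minus off, of each pseudogene (circles) and its parent (diamonds) in log2 units, with bars of 1 moderated standard error. Rpl31-ps8, Rpl39-ps, Rpl9-ps6 and Rps13-ps2 lie left of their parents, and the other 8 pseudogenes lie right of them.

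Within each library, the value of the pseudogene minus that of its parent was compared between groups with an exact two-sided permutation test over the 35 groupings, whose smallest possible p is 0.0571, so no pair could pass 0.05. The ratios of 10 of the 12 pairs overlapped between on and off. Rpl31-ps8 minus Rpl31 ran from -8.07 to -7.89 in on and from -7.84 to -7.69 in off, a difference of -0.18 ± 0.06 (SE, exact permutation p = 0.0571). Rpl29-ps2 minus Rpl29 ran the other way, from -7.26 to -7.14 in on and from -7.49 to -7.36 in off, a difference of 0.21 ± 0.05 (SE, exact permutation p = 0.0571). For Rpl39-ps the difference from its parent was -0.21 ± 0.10 (SE, exact permutation p = 0.171) and for Rps19-ps3 it was 0.16 ± 0.08 (SE, exact permutation p = 0.171). The median over pairs was 0.06, and it was -0.07 after the correction for length and GC content. Without on replicate 1 it was 0.12, without on replicate 2 it was 0.01, and with the first off library left out it was 0.09. Because a rlog value near 3 is shrunken far more than one near 11, equal differences on this scale are not equal changes in reads.

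On replicate 1 lay among the other on libraries in the pseudogenes and between the groups in the parents. The median deviation of the 12 pseudogenes from their own means was -0.08, -0.02, -0.11 and -0.09 in on replicates 1 to 4 and 0.10, 0.10 and 0.12 in off replicates 1 to 3. For the 11 parents it was 0.06, -0.15, -0.09 and -0.12 in on and 0.09, 0.14 and 0.10 in off. For the 68 other cytoplasmic ribosomal protein genes it was 0.09, -0.14, -0.04 and -0.09 in on and 0.06, 0.10 and 0.02 in off. On replicate 1 lay below all 3 off libraries in 10 of 12 pseudogenes, in 6 of 11 parents and in 25 of all 79 ribosomal protein genes, against 22.0% of all tested genes. Without this library 8 of 12 pseudogenes and 10 of 11 parents passed lower, where 3 parents passed with it; the share of all tested genes that passed lower was then 8.02%, where it was 1.79% with it.

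**Figure D3:**
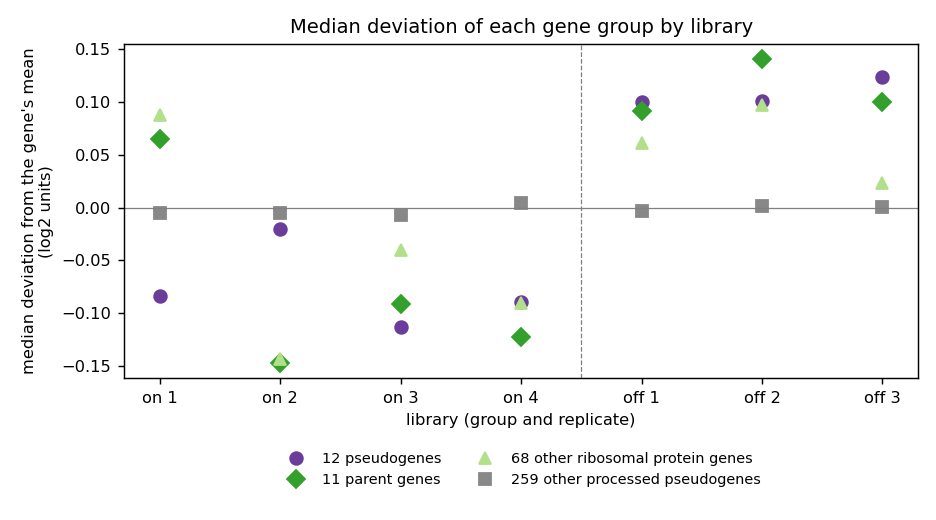
Median deviation from each gene's mean (log2 units) in each of the 7 libraries, for the 12 pseudogenes, their 11 parents, 68 other ribosomal protein genes and 259 other tested processed pseudogenes. In on replicate 1 the pseudogenes lie at -0.08 and the parents at 0.06, and the 259 other processed pseudogenes stay near 0 in all libraries.

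After each library's trend with transcript length and GC content was removed, the median difference of the 12 pseudogenes was -0.14, with 5 passing lower, that of the parents was -0.08, with 1 passing, and that of the 68 other ribosomal protein genes was -0.02, with 2 passing, beside 0.477% of all genes passing lower in that fit. Rpl31-ps8 then stood at -0.37 (adjusted p = 0.000681 in limma), Rpl39-ps at -0.28, Rpl9-ps6 at -0.23, Rps16-ps2 at -0.22 and Rps13-ps2 at -0.19.

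Of 259 other processed pseudogenes tested, 9 were lower and 0 higher in limma, where 1.79% of all tested genes passed lower and 0.816% higher. The 259 had a median difference of 0.00. Among them 40 had a cytoplasmic ribosomal protein transcript as their closest coding match, and 5 of these 40 were lower. The 5 all came from the 14 copies with 99% or more of their bases identical to that transcript (median difference -0.11), and 0 of the 14 copies at 95% to 99% and 0 of the 12 below 95% passed in either direction (medians -0.005 and 0.02). Among them are Rpl37rt (a copy of Rpl37, -0.43 ± 0.05, SE), Gm9843 (of Fau, -0.37 ± 0.04), Gm4149 (of Rpl37a, -0.37 ± 0.04) and Gm9385 (of Rpl24, -0.26 ± 0.03), named after their values were seen. Of the 12 members, 5 of 7 at 99% or more and 3 of 5 at 95% to 99% were lower. These 3 were Rps10-ps2 at 98.99%, Rps10-ps1 at 98.8% and Rpl9-ps6 at 96.8%. Over its aligned bases alone Rpl9-ps6 was 99.4% identical. Rpl29-ps2 at 97.7% and Rps19-ps3 at 96.7%, in the same class, did not pass. Copies of other genes with 99% or more identity had 3 of 60 lower and a median of -0.03. At 95% to 99% they had 1 of 57 lower and a median of -0.002. Below 95% or without a match they had 0 of 102 lower and a median of 0.02.

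**Figure D4:**
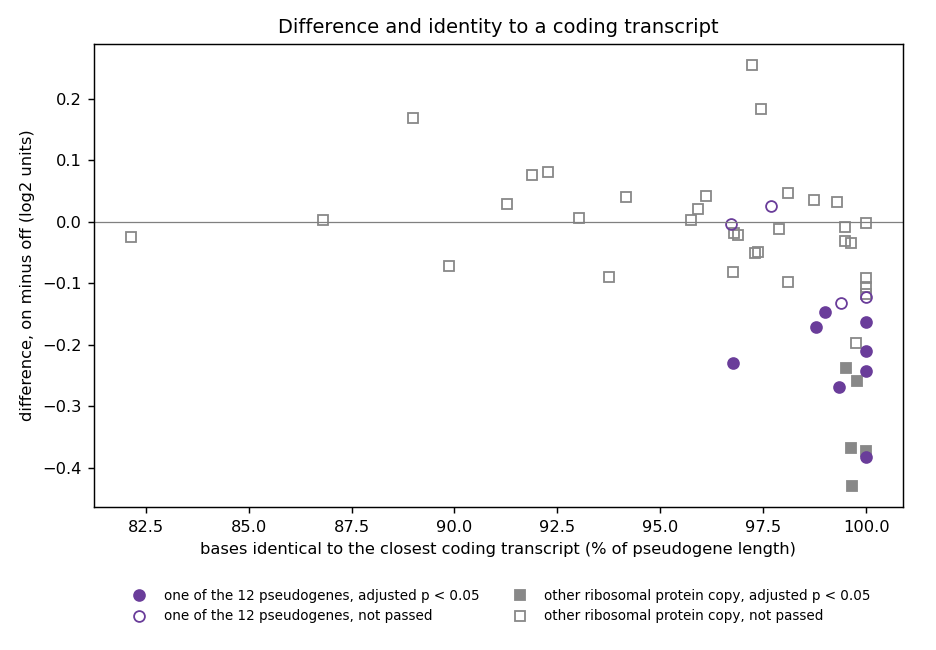
Difference, on minus off (log2 units), against the share of the pseudogene's bases that are identical to the closest coding transcript, for the 12 pseudogenes (circles) and other tested processed copies of ribosomal protein genes (squares); filled symbols passed the limma test at 0.05, and 2 copies under 80% identity are not drawn. The filled squares all lie at 99% or more, and the copies below 95% lie on both sides of 0.

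Of the 13 matches to the pattern with a mean of 2 to 3, which were not tested, 4 had on libraries all below the off libraries and 0 the reverse, where 3.65% and 4.43% of all 1536 genes in that range did. They are Rps15a-ps6 (on 2.04 to 2.14, off 2.24 to 2.31), Rpl36a-ps2 (2.46 to 2.52, 2.57 to 2.65), Rpsa-ps10 (2.62 to 2.65, 2.66 to 2.76) and Rpl3-ps1 (2.87 to 2.94, 2.95 to 3.03). Rps13-ps4, another copy of the parent of Rps13-ps2, overlapped, at 2.92 to 3.00 in on and 2.92 to 3.04 in off. Of the 170 matches with a mean under 2 that were not listed at 0, 11 had the on libraries all lower and 31 all higher, and the median difference was -0.0003. Of all 15260 genes in that range 0.878% had the on libraries all lower and 17% all higher.

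Of 79 cytoplasmic ribosomal protein genes 12 were lower, 0 higher and 67 did not pass, where 1.79% of all tested genes passed lower. The 79 had a median of -0.12. The 11 parents, of which 3 were lower, are counted among them. Rps28 had the smallest p (-0.32 ± 0.05, SE, adjusted p = 0.00499 in limma). Of 17 translation factor and related genes of the kind translated together with ribosomal proteins, 1 was lower, the initiation factor subunit gene Eif3f at -0.17 ± 0.04 (SE, adjusted p = 0.0359 in limma), and the median was -0.05. Of 7 ribosomal protein paralogs and retrogenes tested, 2 were lower (median -0.15), and 1 of these is Rpl37rt, already counted among the other processed copies. Nuclear noncoding RNAs, whose level can vary with RNA quality and for other reasons, were counted beside them. Of these 9, 2 were higher and 0 lower, with a median of 0.21, where 0.816% of all tested genes passed higher. Their mean level ran from 13.36 to 13.67 in on and from 13.19 to 13.41 in off. Their deviations had a median of -0.15 in on replicate 1, of 0.14 to 0.18 in on replicates 2 to 4, and of -0.23 to -0.03 in off. On replicate 1 thus lay within the range of the off libraries in these RNAs; the part of RNA quality in the result was not tested.

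The libraries carried the markers of brain cells. The 6 neuron markers had a mean level of 14.72 to 14.77 in on and 14.74 to 14.84 in off, and the astrocyte, oligodendrocyte, microglia and endothelial lists had 0 genes past the test in either direction, as had the neuron list and the 5 blood genes. The 6 endothelial markers had a median difference of 0.12, with 2 of 6 negative, and the smallest p was that of Kdr, a receptor of endothelial cells, at 0.22 ± 0.10 (SE, adjusted p = 0.21 in limma). Their mean level ran from 9.74 to 10.12 in on and from 9.77 to 10.02 in off. Their deviations had a median of -0.24 in on replicate 1, 0.14, 0.13 and 0.16 in the next 3, and 0.01, -0.19 and 0.02 in off. Their part in the result was not tested. Fewer cells of a type and less RNA per cell cannot be told apart in these bulk samples.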

How the data were processed

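Brain RNA of 7 libraries was prepared with a stranded poly(A) kit, per the labels' protocols. Build GRCm38, DESeq2 1.16.1, Subread 1.5.3 and STAR 2.5.2 are listed, with BWA 0.7.14-r1136 and cutadapt 1.9.1, per the submitters' processing notes. Which step each served, the strand setting and how reads with several matches were treated are not given there. The authors deposited log2 values (regularized logarithms) of 48526 genes, with no counts, so depth and counting error are unknown. Symbols were found for 48058 genes. The 17896 genes with a mean of 3 or more were tested with limma 3.58.1 (intensity trend, group as the only term) and Benjamini-Hochberg adjustment at 0.05, and the scripts were tested on simulated data. Pseudogene and parent transcripts of GENCODE M21 were aligned with biopython 1.88, and closest coding transcripts were found with BLAST 2.17.0. The length and GC correction used smooth terms in mgcv 1.9.3 within 3 classes of mean value. All 12 pseudogenes were described, with their parents; genes outside them were named by smallest p in a list or as stated. Members and lists were chosen with earlier results of these data known. One of the other copies that passed is not reported here by name.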

Additional observations from a re-analysis of the deposited data

Results flagged for a closer look

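Rpl9-ps6 in on replicate 2 stood at 4.77, against 4.61 to 4.63 in the other 3 on libraries, a gap of more than the 95% limit of Dixon's test for 4 values. Of 37 values checked this was the 1 that passed, and chance flags about 1 in 20. The library still lay below the 3 off libraries in this gene.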

How the results depend on the processing

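Values come from 7 libraries with no depth, and low rlog values are shrunken, which limits what the differences show. Genes passing numbered 466, of which 8 were members. The counts were 7 and 0 without the limit on low values, 237 and 5 without the intensity trend, 30 and 4 with the replicate block, 118 and 5 after the length and GC correction, and 2 and 0 with block and correction together. A threshold of 0.1 gave 1182 and 8, and array weights gave 2215 and 9, with Rpl14-ps1 added. At a mean of 5 or more 0 members passed, since only Rps19-ps3 was still tested, and the other 11 have no value there. Leaving out 1 library gave 43 genes (off replicate 2) to 2917 (on replicate 1) and 4 to 8 members. The median difference of members was -0.13 with block and correction together. Pseudogene minus parent, 0.06, turned to -0.0678 with the correction and to -0.0701 with correction and block, and ran from 0.01 (on replicate 2 left out) to 0.12 (on replicate 1 left out). Rps19-ps3, at -0.003, turned to 0.00346 with median centring, 0.0259 with the correction, 0.0208 with correction and block, and ran from -0.0582 to 0.0341 with 1 library left out. The longest transcript gave a level per length of -5.93. Identity over the whole length had a median of 99.4%. Same-numbered libraries had correlations of deviations of -0.228, -0.100 and 0.0176, and the largest, 0.297, was between on replicate 2 and off replicate 1. Deviations from a group's mean cancel within the group, so these correlations cannot decide whether the numbers pair the samples. Where an alternative removed calls, the cause was not tested.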
